A study of Mus musculus with 35 samples.

Results

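The 7 genes described here encode proteins of the nucleolus and of small nucleolar ribonucleoproteins (snoRNPs): Ncl, Npm1, Nop56, Nop58, Fbl, Nolc1 and Dkc1. They were chosen by name from the 37310 annotated mouse genes, and the same-strand cross-link events inside their gene bodies were collected from every deposited library and pooled file, with exons, introns and nested small RNA genes kept apart. The experiment was individual-nucleotide UV cross-linking and immunoprecipitation (iCLIP), in which UV light joins a protein to RNA in living cells and cDNA synthesis from the recovered RNA ends beside the joined nucleotide. It was performed in P19 cells, a mouse embryonal carcinoma line, with no further treatment. Each line carried a GFP-tagged gene on a bacterial artificial chromosome, and all libraries were made with the same anti-GFP antibody. The tagged proteins were the SR proteins SRSF1 (4 libraries), SRSF2 (5), SRSF3 (3), SRSF4 (3), SRSF5 (4), SRSF6 (3) and SRSF7 (6), and the mRNA export receptor NXF1 (3). GFP with a nuclear localization signal (GFP-NLS) served as the control, with 4 libraries in 1 pooled file. The lines were stable transfectants, so each protein may rest on a single clone. The paper calls the replicates biological, and nothing states whether they came from separate cultures. The p-values below therefore reflect only how much these libraries differ from each other, and that may be technical.

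A deposited file lists single nucleotides with a cDNA count, and only positions that passed the submitters' density threshold in that library are listed. A listed cDNA is called a tag, and levels are given in CPM, the tags of a gene scaled to the same listed total in every library. A value of 0 means that no position passed, and the total of a file is not a sequencing depth. The 31 libraries with a file of their own held between 13038 and 4459523 tags (median 237488), and the 3 NXF1 libraries 237488, 140361 and 108708. The headers of 2 SRSF2 libraries, replicates 2 and 5, name SRSF1 in place of SRSF2, and results that change without them are marked. SRSF7 replicate 4 has 30.1% of its tags at positions of the pooled SRSF7 file, which held 1911 Ncl tags against 9331 in that replicate alone. Pooled SRSF7 values are thus not a sum of its libraries. The NXF1 libraries were all run in 2014, as were those of SRSF1, SRSF3, SRSF4 and SRSF7 replicates 4 to 6, while the others were run in 2013. All 10 marker genes of pluripotent embryonal carcinoma cells had tags (929 to 2415 CPM summed over the list, over the 8 pooled files), against 0 to 2.25 CPM for 5 endoderm markers, of which Sox17, Foxa2 and Afp were at 0, 3.0 to 25.5 CPM for neural markers with Neurod1 at 0, and 0 to 13.7 CPM for fibroblast markers with Postn at 0.

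Box C/D snoRNAs guide 2′-O-methylation of ribosomal RNA in a particle that contains Nop56, Nop58 and the methyltransferase fibrillarin (Fbl). Box H/ACA snoRNAs guide pseudouridylation in a particle whose catalytic subunit is dyskerin (Dkc1), and Nolc1 (Nopp140) is a phosphoprotein that accompanies snoRNPs between Cajal bodies and the nucleolus. Nucleolin (Ncl) and nucleophosmin (Npm1) are abundant nucleolar proteins of ribosome assembly. In vertebrates most snoRNAs lie inside introns of host genes, many of which encode proteins of the ribosome pathway, and they are trimmed out of the debranched intron after splicing.

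In the GENCODE vM1 annotation of mm9, 4 of the 7 genes held nested snoRNA genes, 12 in all. Ncl (ENSMUSG00000026234.6, chr1:88241294-88256030, minus strand, 14 exons) had Snord82 in intron 5, SNORD20 in intron 11 and Snora75 in intron 12. Nop56 (ENSMUSG00000027405.10, chr2:130100166-130105049, plus strand, 12 exons) had Snord110 in intron 3, SNORA51 in intron 5, SNORD56 in intron 9 and Snord57 in intron 10. Nop58 (ENSMUSG00000026020.2, chr1:59741853-59768968, plus strand, 15 exons) had Snord70, SNORD70, SNORD11 and Snord11 in introns 2, 3, 8 and 9. Dkc1 (ENSMUSG00000031403.8, chrX:72341193-72355116, plus strand, 15 exons) had SNORA36 in intron 8, which held no tag in any library. No nested snoRNA gene was annotated in Npm1 (ENSMUSG00000057113.7, chr11:33052287-33063206, minus strand, 11 exons), Fbl (ENSMUSG00000046865.5, chr7:28954765-28964288, plus strand, 9 exons) or Nolc1 (ENSMUSG00000015176.8, chr19:46150353-46160018, plus strand, 13 exons). Upper and lower case names are those of the annotation and mark different genes. Counting cannot place reads from near-identical copies, and the share of exon nucleotides whose 30-mer occurs once in the genome was 27.8% for Fbl, 53.2% for Npm1 and 63.5% for Nop56, against 88.5% to 99.7% for the other 4.

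The sequences that carried most of the NXF1 tags were the box C/D snoRNAs of Ncl, Nop56 and Nop58 and the H/ACA snoRNA Snora75. The first and last 30 nt of 5 of them are shown 5′ to 3′, read from the mm9 genome on the host's strand. Capitals mark the first exact TGATGA (the core of box C) in the first 30 nt and the last exact CTGA (box D) in the last 30 nt, and other matches stay in lower case. SNORD20 spans chr1:88248583-88248662 (minus), Snord110 chr2:130101242-130101309 (plus), SNORD11 chr1:59761102-59761182 (plus), Snord11 chr1:59761634-59761717 (plus) and Snora75 chr1:88247744-88247876 (minus).
SNORD20 start: tggataTGATGActgattacctgagaaata
SNORD20 end: attcctctagatagtcaagttCTGAtccag
Snord110 start: ttgcaaTGATGActtatatatctgtcaatc
Snord110 end: gatcactgacgactccatgtgtCTGAgcaa
SNORD11 start: aggtggcaaTGATGAtttttcttatttgtt
SNORD11 end: gttcagtcactacctcatCTGAtgccatct
Snord11 start: gtgttcaaTGATGAtttctgatgctttgcc
Snord11 end: cagcttcagtcactacctcttCTGAgacac
Snora75 start: atcttctcattgagctcctttctgtccatc
Snora75 end: aagtatatttggctgttgtgtgagacatta

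All 9 of the SNORD genes had CTGA in their last 30 nt and 5 of them had TGATGA in their first 30 nt, on the annotated strand. Over all 1552 annotated snoRNA genes, both classes included, these shares were 58.5% and 19.8%. SNORD11 and Snord11 lie in neighbouring introns of Nop58, as do Snord70 and SNORD70.

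Cross-links to the 7 genes were found with every tagged protein, in amounts that differed between genes and proteins. Summed over the 8 pooled files, Ncl held 47076 tags, Npm1 37637, Nop56 24091, Nop58 18345, Nolc1 6325, Dkc1 4238 and Fbl 626. Per length of coding sequence, the median over the 28 SR libraries was highest for Npm1 (353 CPM per kb), followed by Ncl (280), Nop56 (118), Nop58 (90.5), Nolc1 (25.8), Dkc1 (14.8) and Fbl (2.73). In the NXF1 libraries the medians on this scale were 114 for Ncl, 97.6 for Npm1 and 0 for the other 5. The low values of Fbl go with the low share of its exon 30-mers that occur once, and the part of this in the result was not tested.

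In the gene bodies, with nested snoRNAs included, Ncl had 3137, 3071 and 2438 CPM in NXF1 replicates 1 to 3, against a range of 0 to 5091 and a median of 1264 over the 28 SR libraries. Nop58 had 2788, 2066 and 1435 CPM with NXF1 and 0 to 1719 (median 616) with the SR proteins. Nop56 had 2236, 2002 and 1380 CPM with NXF1 and 0 to 1575 (median 946) with the SR proteins. In each of these 3 hosts all NXF1 libraries were above the SR median. In Nop58 and Nop56 replicates 1 and 2 were above every SR library, and in Ncl all 3 lay inside the SR range. A level depends on how much of an RNA the cells held and on how much of it was bound, and these cannot be told apart here. The other members had no such pattern. Npm1 had 1048, 762 and 828 CPM with NXF1, below the SR median of 1338 (range 101 to 3859). Nolc1 had no listed position in any of the 3 NXF1 libraries, and 0 to 852 CPM (median 80.5) in the SR libraries. Dkc1 had 71.6, 0 and 0 CPM with NXF1 (SR median 57.8, highest 470), and Fbl 0, 57.0 and 0 (SR median 7.79, highest 62.2).

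**Figure D1:**
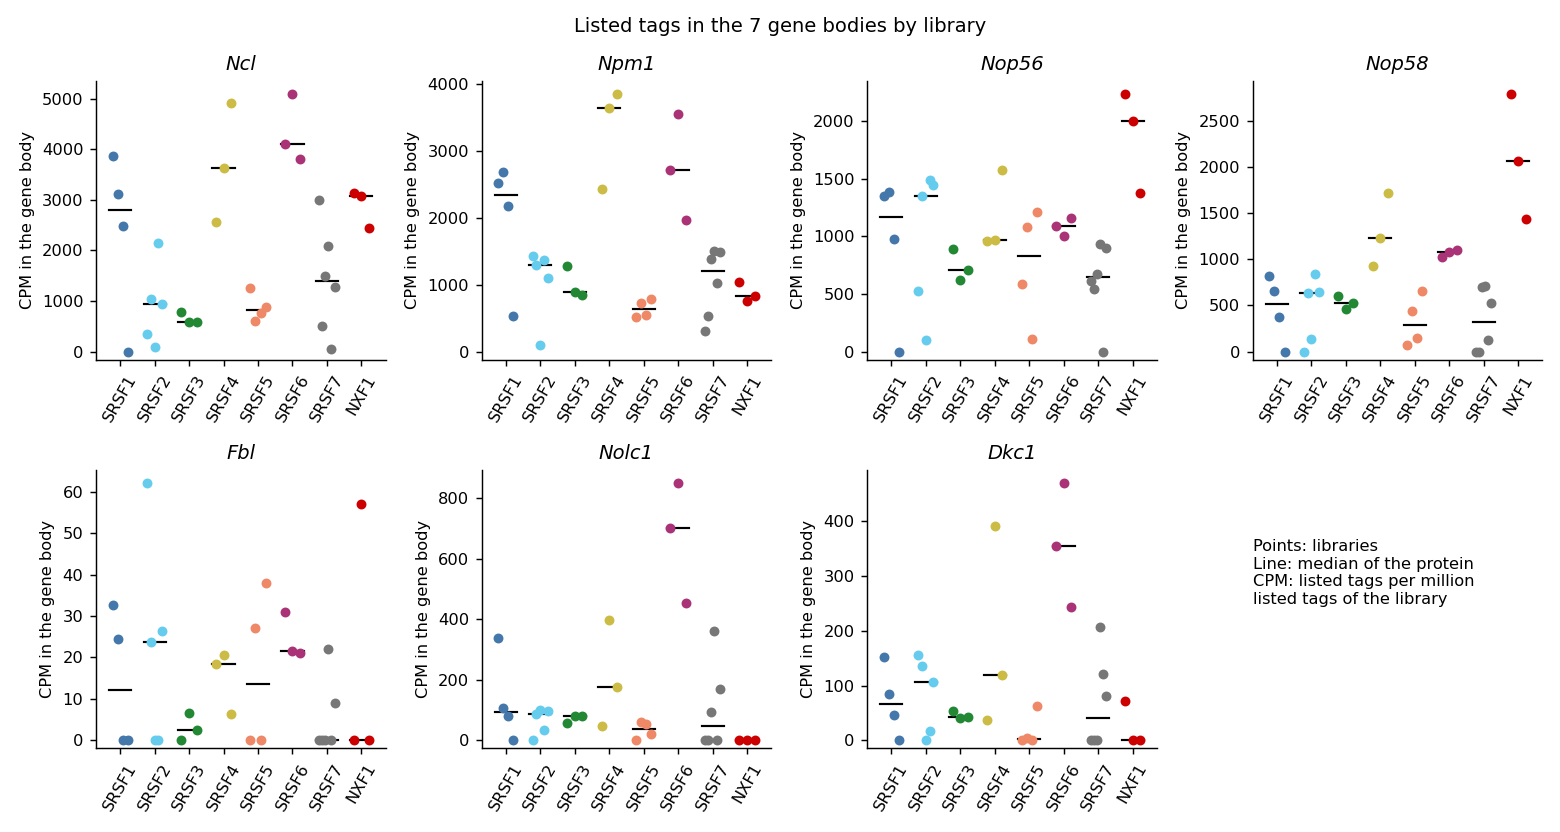
CPM in the gene body (linear vertical axis) for each of the 7 genes, with 1 point per library in 8 columns, SRSF1 to SRSF7 and NXF1. The 3 SRSF6 points of Nolc1 lie at 703, 852 and 455 CPM, while its 3 NXF1 points lie at 0.

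The question put to these values was whether NXF1 differed from the SR proteins as a group. A limma voom fit on all 6234 genes that passed a filter on low values, with adjusted p-values over all of them, compared NXF1 with the mean of the 7 SR proteins. Of the members 6 passed the filter (Fbl did not), and 1 of these 6 was called at an adjusted p under 0.05, where 6.18% of all genes tested were called in either direction. The called member was Nolc1, lower with NXF1 (log2 difference -4.89, SE 1.41, adjusted p = 0.0331), and 2.60% of all genes were called lower. As all 3 NXF1 libraries were at 0, that value is set by the fit's prior and gives no fold. The call was lost without NXF1 replicate 1, 2 or 3, with adjusted p-values of up to 0.234, and under trimmed mean and median of ratios scaling (up to 0.192), and stood within the libraries run in 2014 (-5.25, adjusted p = 0.0107). The host genes gave log2 differences of 2.35 for Nop58 (SE 1.01, adjusted p = 0.0999), 1.44 for Nop56 (adjusted p = 0.205) and 1.19 for Ncl (SE 0.90, adjusted p = 0.279). Npm1 gave -0.60 (adjusted p = 0.448) and Dkc1 -2.07 (adjusted p = 0.135). The median log2 difference was 0.29 over the 6 members and -1.83 over all genes tested. Under 3 other scalings the median of all genes lay between -1.02 and -0.85, and relative to it Nop58 stood 4.12 to 4.35 higher, Nop56 3.27 to 3.34, Ncl 3.02 to 3.08 and Npm1 1.22 to 1.26, while Nolc1 stood at -3.17 to -2.89.

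The body values of the hosts joined different kinds of sequence. When each tag was assigned once, with snoRNA tags taken out of the host, the difference between NXF1 and the SR proteins was -2.15 for Nop58 (adjusted p = 0.0953), 0.06 for Ncl (adjusted p = 0.957) and 0.21 for Nop56 (adjusted p = 0.839). For Nop58 the direction thus reversed, while none of the 3 differences passed the test in either form.

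The snoRNA share of host tags was higher with NXF1 than in any SR library, while the few control tags in the hosts also lay mostly in snoRNAs. Of the tags in Ncl, Nop56, Nop58 and Dkc1 together, 75.1%, 82.4% and 74.3% lay inside annotated snoRNA genes in the 3 NXF1 libraries (mean 77.3% ± 4.46, SD, n = 3). In the 27 SR libraries with tags in these genes the share ran from 0% to 64.7%, with a median of 33.2%, so the 2 groups did not overlap. Among SR proteins the median share was 49.5% for SRSF5, 44.4% for SRSF3, 41.7% for SRSF1, 37.2% for SRSF4, 26.6% for SRSF2, 20.1% for SRSF7 and 11.7% for SRSF6. In the control pool all 11 tags in Ncl and all 15 in Nop56 were inside snoRNAs, and none of the 3 in Nop58 and Dkc1, so a high share was not particular to NXF1. The shares are given as a description without a test. Exons of any annotated transcript held 15.3% of the host tags with NXF1 and 62.2% with the SR proteins (means over libraries). Introns outside these exons and the snoRNAs held 7.44% and 8.23%. An intron of the transcript used to number exons thus counted as exon where another transcript has one. Intron 11 of Nop56, numbered in this way, held 3076 pooled tags (12.8% of the gene), more than any numbered exon, and most of these counted as exon. Counting listed positions in place of tags gave 62.5% against 17.0%, and adding 10 nt to each end of a snoRNA gave 88.8% against 37.2%.

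The share was not equal in the 3 hosts. In Nop58, NXF1 had 92.9%, 98.6% and 98.7% of its tags in snoRNAs, above all 24 SR libraries with tags there (0% to 90.0%, median 45.1%). In Nop56 the NXF1 shares were 75.1%, 82.2% and 69.3%, inside the SR range of 0% to 100% (26 libraries, median 43.9%). In Ncl they were 60.9%, 71.7% and 62.6%, where the SR range was 0% to 65.4% (median 20.6%) and the SRSF5 libraries alone lay between 40.2% and 65.4%. Only in Nop58 did NXF1 stand clear of every SR library. No least number of tags was set for these ranges. SRSF7 replicate 1, at 100% in Nop56, had only 8 tags there, all in Snord57. In the pooled NXF1 file 1126 of 1231 Nop58 tags, 820 of 1070 Nop56 tags and 937 of 1544 Ncl tags were inside snoRNAs.

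**Figure D2:**
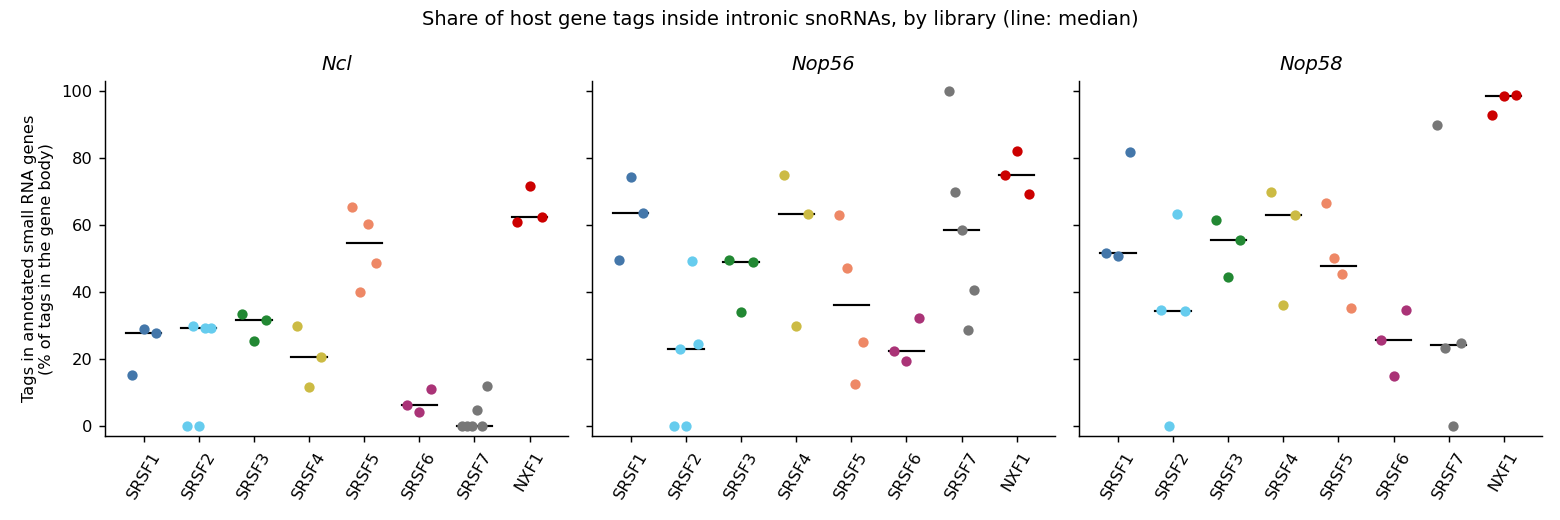
Share of gene-body tags inside annotated small RNA genes (percent, vertical axis), by library, for the host genes and 8 proteins; points are libraries and lines are medians. In Nop58 the NXF1 points lie between 92.9% and 98.7%, above all SR points.

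Single snoRNAs were then tested against all 6945 exon, intron and small RNA units of the annotation that passed the filter. Of the 26 units of the members 21 passed, among them 11 of the 12 snoRNAs, and 6 of the 21 differed between NXF1 and the SR proteins, where 3.08% of all units did in either direction. Of the 11 snoRNAs 5 were called higher with NXF1, where 31% of all 336 small RNA units tested were called higher. The median log2 difference was 2.77 over the 11 and 2.49 over the 336. Thus the snoRNAs of these hosts were near the background of small RNAs in this contrast. Every NXF1 library lay above every SR library for 4 of the 11, and for 25.0% of the 336. Within the libraries run in 2014 alone, the differences were 3.49 for Snora75 (adjusted p = 0.00180), 3.32 for SNORD11 (0.00123), 2.55 for SNORD20 (0.0254), 2.93 for Snord110 (0.0335) and 3.60 for Snord11 (0.0533, no longer called). All 5 calls were lost with no CPM filter and with limma-trend, those of SNORD11, SNORD20 and Snord110 also under trimmed mean scaling, and that of SNORD20 also under median of ratios scaling. With a replicate block the calls of SNORD20 (adjusted p = 0.0514) and Snord11 (0.0632) were lost. Over the alternatives the highest adjusted p was 0.143 for Snora75, 0.137 for SNORD11, 0.189 for SNORD20, 0.144 for Snord110 and 0.123 for Snord11.

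In Ncl, Snora75 had 754, 677 and 718 CPM in the NXF1 libraries and 0 to 385 CPM (median 58.0) in the SR libraries, with no overlap (log2 difference 3.27, adjusted p = 0.00437). SNORD20 had 1023, 1482 and 708 CPM against 0 to 596 (median 168), also without overlap (2.77, adjusted p = 0.0470). Snord82 had 135, 42.7 and 101 CPM against 0 to 211 (median 9.05), and its groups overlapped (2.30, adjusted p = 0.113). Thus 2 of the 3 Ncl snoRNAs, 1 of each box class, were called higher. The Snora75 call was lost without NXF1 replicate 1 or 2 (adjusted p up to 0.0702). That of SNORD20 was lost without any 1 of 10 libraries, namely SRSF3 replicates 2 and 3, SRSF4 replicate 2, SRSF5 replicate 2, SRSF6 replicates 1 to 3 and NXF1 replicates 1 to 3, with adjusted p-values of up to 0.321.

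In Nop58, SNORD11 had 1440, 1140 and 1095 CPM with NXF1 and 0 to 659 (median 105) with the SR proteins, with no overlap (log2 difference 3.48, adjusted p = 0.00436). Snord11, in the next intron, had 362, 413 and 0 CPM against 0 to 115 (median 0), so NXF1 replicates 1 and 2 were above every SR library and replicate 3 was at 0 (3.46, adjusted p = 0.0435). Snord70 had 509, 342 and 239 CPM against 0 to 276 (median 43.9; 2.88, adjusted p = 0.0557), and SNORD70 278, 142 and 82.8 against 0 to 304 (median 41.1; 1.83, adjusted p = 0.133). Both snoRNAs of the SNORD11 pair passed the test and neither of the SNORD70 pair did. The SNORD11 call was lost without NXF1 replicate 1 or 2 (adjusted p up to 0.0805). The Snord11 call was lost without SRSF3 replicate 2, SRSF5 replicate 2, SRSF6 replicate 1 or 2, or NXF1 replicate 1 or 2 (up to 0.382).

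In Nop56, Snord110 had 269, 249 and 129 CPM with NXF1 and 0 to 94.6 (median 22.7) with the SR proteins, with no overlap (log2 difference 3.15, adjusted p = 0.0449). Snord57 had 804, 712 and 506 CPM against 0 to 715 (median 116; 2.49, adjusted p = 0.100), and SNORD56 594, 684 and 322 against 0 to 426 (median 106; 2.29, adjusted p = 0.107). The H/ACA snoRNA SNORA51 had 12.6, 0 and 0 CPM against 0 to 156 (median 0; 0.63, adjusted p = 0.738), while the pooled NXF1 file, in which positions passed the threshold separately, held 78 tags inside it (137 CPM, against 0 to 98.5 in the SR pools). Of the 4 Nop56 snoRNAs only Snord110 was called. Its call was lost without any 1 of 12 libraries: SRSF2 replicates 2 and 5, SRSF3 replicates 1 and 2, SRSF4 replicate 2, SRSF5 replicate 2, SRSF6 replicates 1 to 3 and NXF1 replicates 1 to 3 (adjusted p up to 0.274). Both SRSF2 libraries are those whose headers name SRSF1, and without the pair the value was 3.16 (adjusted p = 0.0513). With 10 nt added to each end of the snoRNA genes it was 2.87 (adjusted p = 0.0834).

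**Figure D3:**
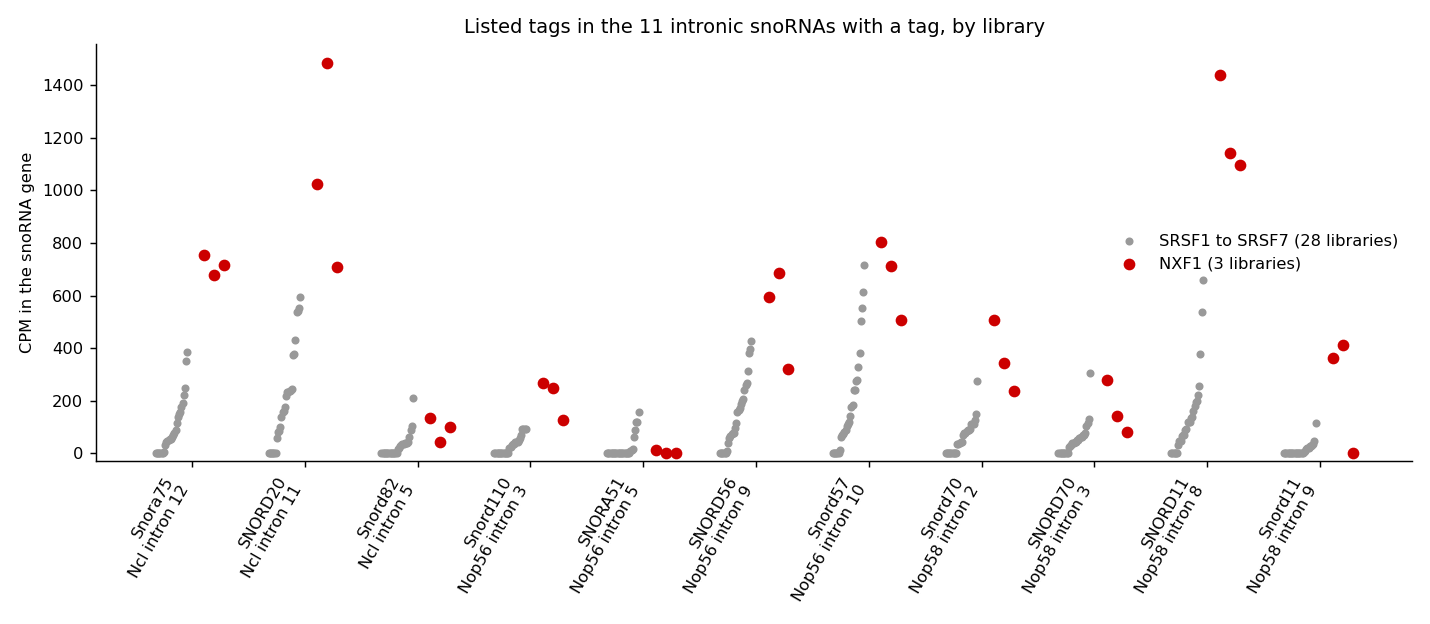
CPM (linear vertical axis) in each of the 11 intronic snoRNAs with a tag, 1 point per library, NXF1 and SR libraries in different colours. For SNORD11 the NXF1 points lie at 1440, 1140 and 1095 CPM and the highest SR point at 659.

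Within the SR family 5 of the 11 snoRNAs were called with SRSF5, in both directions, and 1 with SRSF7. Each SR protein was compared with the mean of the remaining 6. Over these 7 contrasts, which share libraries, 12 member units were called, where 6.94% of all pairs of unit and protein were. SRSF5 was lower in 4 of the 11 snoRNAs, where 3.87% of the 336 small RNAs were called lower, and higher in 1, where 9.52% were called higher. The median log2 difference was -1.12 over the 11 and 0.26 over the 336 with SRSF5, and -0.05 and -0.50 with SRSF7. The snoRNA that was higher with SRSF5 was SNORA51, with 120, 156, 0 and 12 CPM in SRSF5 replicates 1 to 4. Replicate 2 was the highest of all 28 SR libraries. SRSF2 libraries had 0 to 120 CPM there and SRSF1 libraries 0 to 62.6, so both overlapped those of SRSF5. The highest library of the remaining SR proteins was at 15.9 CPM (SRSF7). The SRSF5 difference was 3.62 on the log2 scale (adjusted p = 0.00859). This call was lost without SRSF5 replicate 2 (adjusted p = 0.0932), within the libraries run in 2013 (2.97, adjusted p = 0.0831), with limma-trend, and with 10 nt added to each end of the snoRNA genes (1.30, adjusted p = 0.167).

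The 4 snoRNAs that were lower with SRSF5 were Snord82, Snord110, SNORD56 and Snord70. All 4 calls were lost under trimmed mean and median of ratios scaling, with limma-trend and by listed positions, with adjusted p-values of up to 0.292, 0.631, 0.995 and 0.311 in that order. Snord82 had no listed position in any SRSF5 library (adjusted p = 0.0248). Snord110 had 0, 0, 0 and 41.9 CPM (log2 difference -2.66, adjusted p = 0.0445) and Snord70 0, 76.4, 0 and 0 (-2.85, adjusted p = 0.0219). Among the SRSF5 libraries a single one thus held all the tags, 21 in Snord110 and 48 in Snord70. The pooled SRSF5 file, in which positions passed the threshold separately, held 62 and 80 tags inside them. It entered no test. Within the 2013 libraries alone Snord110, Snord70 and SNORD56 did not pass (adjusted p = 0.0603, 0.130 and 0.109). SNORD56 had 8.01, 76.4, 0 and 67.8 CPM (-2.17, adjusted p = 0.0383). The Snord82 and SNORD56 calls were lost without any 1 of the 4 SRSF5 libraries (adjusted p up to 0.151 and 0.144), and that of Snord70 without SRSF5 replicate 4 (0.227). The Snord110 call was lost without SRSF3 replicate 2 or 3, SRSF4 replicate 2, SRSF5 replicate 1, 2 or 3, SRSF6 replicate 1 or 3, SRSF7 replicate 4 or 6, or NXF1 replicate 2 (up to 0.698, with a difference of -0.66 without SRSF5 replicate 2), and without the SRSF2 replicates whose headers name SRSF1 (-2.6, adjusted p = 0.0541). It stood under 1 of 11 alternatives. The 2 most abundant SRSF5 snoRNA values of Ncl did not pass the test in this contrast, with Snora75 at 385, 68.5, 224 and 193 CPM and SNORD20 at 433, 175, 237 and 235. SRSF7 was lower in Snora75 (0, 0, 0, 4.48, 0 and 51.7 CPM in replicates 1 to 6; -2.56, adjusted p = 0.0312), which was 1 of the 11 where 2.98% of small RNAs were called lower. That call was lost without SRSF7 replicate 2 or 4 (up to 0.226), under trimmed mean and median of ratios scaling, with limma-trend, by listed positions, and within either run year (-2.74, adjusted p = 0.0972 in 2014, and -2.55, 0.582 in 2013).

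Along the snoRNAs, the position with the most tags was shared by several proteins. Inside Snord57 the position with the most tags was nucleotide 29 or 30, counted from the annotated 5′ end, in all 8 pooled files, and nucleotide 30 in the control. Inside SNORD20 it was nucleotide 52 with SRSF1, SRSF4, SRSF5, SRSF6 and NXF1, 41 with SRSF2, 55 with SRSF3, 25 with SRSF7 and 29 in the control. Inside Snora75 it was 96 or 97 in the 8 pooled files. Inside SNORD11 it was 37 for SRSF1 to SRSF6 and 26 for NXF1 and SRSF7. Of the tags in the snoRNAs widened by 10 nt, 9.13% to 12.1% per protein lay at the last 2 nt before the annotated 5′ end. At the nucleotide just before that end Snora75 had 19.2% of its NXF1 tags (19.1% as the mean of the 7 SR pools), Snord57 12.7% (10.3%) and SNORD20 10.7% (8.04%), while SNORD11 had 0% (0.0829%). The 30-nt windows at the positions with the most NXF1 tags in Ncl and Nop58 are shown on the host's strand, with the listed nucleotide in capitals, from chr1:88248597-88248626 (minus) and chr1:59761112-59761141 (plus).
Ncl SNORD20, 92 NXF1 tags: gaaatctcaagaaaaTtcctctagatagtc
Nop58 SNORD11, 59 NXF1 tags: gatgatttttcttatTtgttcacctgacaa

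**Figure D4:**
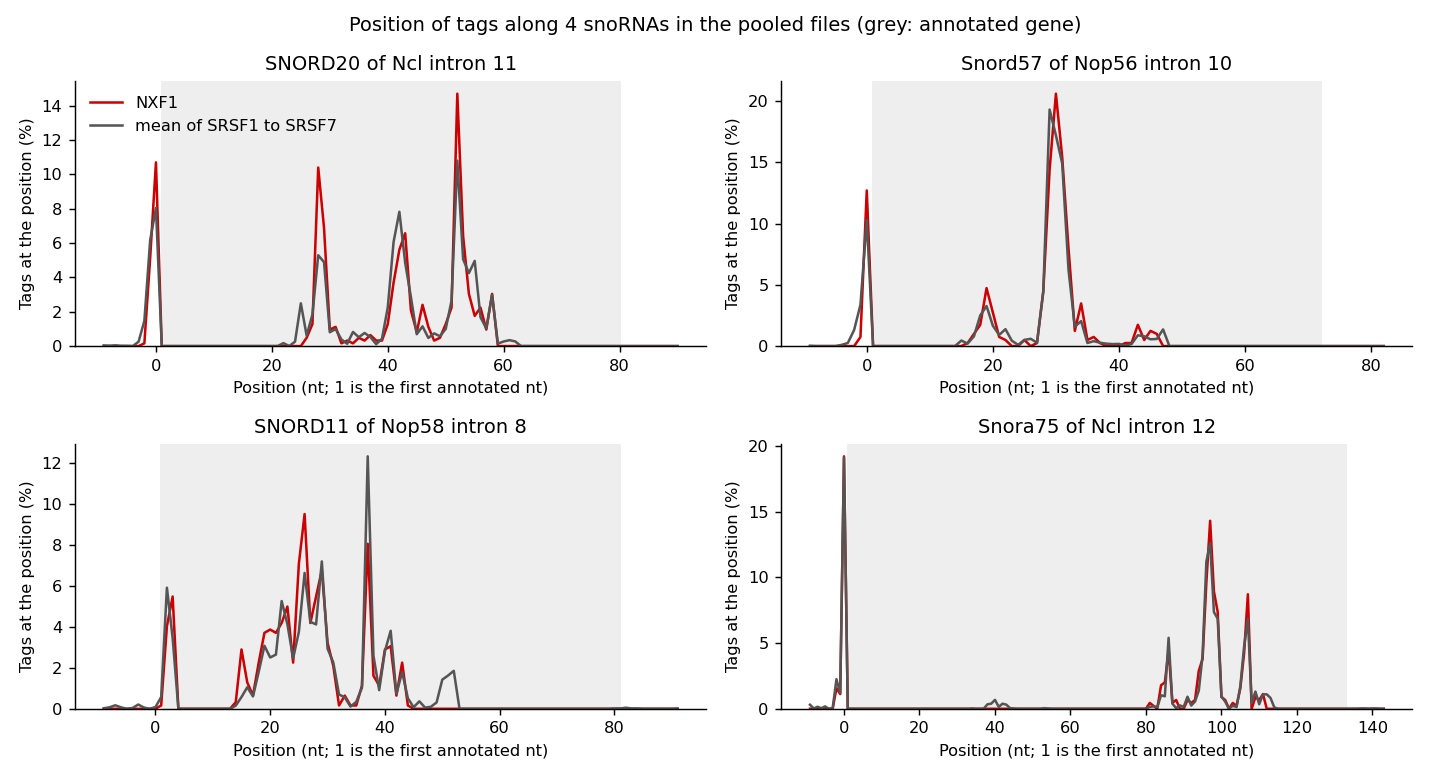
Share of tags (percent of those in the plotted span, vertical axis) at each position along 4 snoRNAs and 10 nt on each side (horizontal axis, nt from the annotated 5′ end; grey marks the annotated gene), from the pooled files. Red is the pooled NXF1 file and dark grey the mean of the 7 SR pools, and inside Snord57 both peak at nucleotide 29 or 30.

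Introns, counted outside the exons of every transcript, held few NXF1 tags away from the snoRNAs. In the pooled NXF1 file 222 of the 224 tags so counted in host introns outside a snoRNA gene lay within 10 nt of one (99.1%), against 14.1% (SRSF6) to 64.5% (SRSF1) in the SR pools. In Nop56 only 19 NXF1 tags were so counted, while 54 lay at the last 2 nt before Snord57 alone. The shares thus leave out tags in numbered introns that fall in exons of other transcripts. Per library, Ncl introns had 291, 513 and 534 CPM with NXF1 and 0 to 596 CPM (median 173) with the SR proteins. Nop58 introns had 0, 28.5 and 0 CPM against 0 to 135 (median 26.0). Npm1, whose introns hold no annotated snoRNA, had 0, 7.12 and 36.8 CPM in introns with NXF1 and 0 to 654 (median 182) with the SR proteins. This was the 1 unit of the members called lower with NXF1 (log2 difference -4.58, adjusted p = 0.0300), a call lost without NXF1 replicate 1, 2 or 3 (adjusted p up to 0.325) and under trimmed mean scaling, median of ratios scaling or limma-trend (up to 0.272). The only other intron call was SRSF1 in Nop58, with 1.42, 0, 0 and 0 CPM (-3.60, adjusted p = 0.0235). The medians of the other SR proteins were 115 CPM for SRSF2, 90.0 for SRSF6, 39.5 for SRSF3, 31.4 for SRSF4, 4.78 for SRSF5 (0 in 2 of 4 libraries) and 0 for SRSF7 (0 in 4 of 6), so the groups overlapped. The call was 1 of 21 member units, where 1.80% of all units were called lower with SRSF1, and was lost without SRSF1 replicate 1, 3 or 4 (up to 0.274), and with no CPM filter, limma-trend or libraries of at least 50000 tags (up to 0.277).

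The exons of the hosts did not pass the test with NXF1. Ncl exons had 935, 356 and 377 CPM with NXF1 and 0 to 4501 (median 806) with the SR proteins (log2 difference -0.60, adjusted p = 0.620). Nop56 exons had 505, 328 and 423 CPM against 0 to 1080 (median 476; 0.16, adjusted p = 0.888). These units took in exons of any annotated transcript. In the coding sequence of Nop56 the NXF1 median was 0 CPM per kb (118 with the SR proteins), so its NXF1 exon tags lay mostly outside the coding sequence. Nop58 exons had 198, 0 and 18.4 CPM against 0 to 835 (median 229), and the difference of -2.82 on the log2 scale had an adjusted p of 0.102. The NXF1 values lay inside the SR range in all 3. Nolc1 exons, at 0 in the 3 NXF1 libraries, had an adjusted p of 0.0557. The median log2 difference over member exons was -1.29, against -2.06 over all exon units, and over member introns -0.66, against -1.16.

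Among the SR proteins SRSF6 and SRSF5 stood at opposite ends for 2 members, Nolc1 and Dkc1. In Nolc1, SRSF6 had 703, 852 and 455 CPM, above every other library of the series, while SRSF5 had 0, 60.5, 52.8 and 19.9. In Dkc1, SRSF6 had 355, 470 and 244 CPM and SRSF5 0, 4.78, 0 and 61.8. SRSF4 replicate 2, at 390 CPM, lay inside the SRSF6 range. The SRSF6 libraries held 1155384 to 2323026 tags and those of SRSF5 75820 to 627982. In SRSF1 replicates 1 to 4, with 703367, 246270, 86924 and 14900 tags, Nolc1 had 337, 106, 80.5 and 0 CPM. In SRSF3 replicates 2 and 3, with 2152709 and 1949249 tags, it had 79.0 and 80.5. The part of library size in these levels, or in the 0 of Nolc1 with NXF1, was not tested. Over the 7 SR contrasts 4 of 42 pairs of member and protein were called in the gene bodies, where 6.11% of all pairs of gene and protein were. SRSF6 was higher in Nolc1 (log2 difference 3.22, adjusted p = 0.0171) and Dkc1 (2.77, adjusted p = 0.0482), 2 of 6 members where 3.80% of all genes were called higher. SRSF5 was lower in Nolc1 (-2.51, adjusted p = 0.0195) and Dkc1 (-2.65, adjusted p = 0.0247), 2 of 6 where 19.5% of all genes were called lower. The medians over members and over all genes were 1.86 and 1.03 for SRSF6 and -1.03 and -1.26 for SRSF5. All 4 calls were lost under trimmed mean and median of ratios scaling. Over all genes 237 were called higher and 42 lower with SRSF6, and 20 and 53 under trimmed mean, 130 and 97 under coding-gene totals and 21 and 51 under median of ratios scaling. With SRSF5 the split was 105 and 1213, and 142 and 106, 317 and 506, and 139 and 74 under these scalings in that order. The libraries run in 2013 hold all those of SRSF5 and SRSF6, and beside them only SRSF2 and SRSF7 replicates 1 to 3. Comparisons within 2013 are thus with fewer proteins, without SRSF1, SRSF3 and SRSF4. There the SRSF6 differences were 4.25 for Nolc1 (adjusted p = 0.00168) and 3.82 for Dkc1 (0.00624). The SRSF5 calls were lost there (-2.23, adjusted p = 0.0573, and -2.35, 0.0691).

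Single libraries mattered for these calls. The SRSF5 calls were lost without SRSF5 replicate 1 or 2 (adjusted p up to 0.178 for Nolc1 and 0.208 for Dkc1), and the SRSF6 call of Nolc1 without SRSF6 replicate 1, 2 or 3 (up to 0.187). That of Dkc1 was lost without any 1 of 14 libraries, namely SRSF1 replicate 3, SRSF2 replicate 4, SRSF3 replicates 1 to 3, SRSF4 replicates 1 and 3, SRSF5 replicates 1 and 2, SRSF6 replicates 1 to 3 and NXF1 replicates 2 and 3 (up to 0.281). In exons alone SRSF6 was again higher in Nolc1 (3.18, adjusted p = 0.0150) and Dkc1 (2.78, adjusted p = 0.0372), 2 of 21 units where 5.27% of all units were called higher. SRSF5 was lower in the exons of Nolc1 (-2.48, adjusted p = 0.0219), Dkc1 (-2.64, adjusted p = 0.0238) and Ncl (224, 312, 79.1 and 269 CPM; -2.26, adjusted p = 0.0488). With the 4 snoRNAs above that made 7 of 21 units, where 18.2% of all units were called lower. The exon calls of SRSF6 and SRSF5 were all lost under trimmed mean and median of ratios scaling, with no CPM filter and with limma-trend. The Ncl call was lost without any 1 of 23 libraries (up to 0.165), both SRSF2 libraries with an SRSF1 header among them, and without that pair (-2.17, adjusted p = 0.0643).

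The limma contrasts of SRSF1, SRSF2, SRSF3, SRSF4 and SRSF7 gave no call among the bodies, and 1 value with an unadjusted p under 0.05, Npm1 with SRSF4 (1.51, adjusted p = 0.408). SRSF3 against SRSF7 gave 0 of 6 members, where 1.92% of all genes tested were called in either direction, and no member had an unadjusted p under 0.05. The median log2 difference was 0.04 over the members and 0.24 over all genes. Medians over the members and over all genes were 1.29 and -0.43 for SRSF4, -0.07 and -0.53 for SRSF1, -0.83 and 0.09 for SRSF2, -0.50 and 0.77 for SRSF3, and -0.62 and 0.54 for SRSF7. For SRSF4, Ncl had 2569, 3630 and 4906 CPM and Npm1 2430, 3646 and 3859, values within or near the SRSF6 range (Ncl 4096, 5091 and 3811; Npm1 2721, 3547 and 1972), and Ncl, too, did not pass in the SRSF4 contrast (1.76, adjusted p = 0.545).

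Exons of the members were not covered evenly. In Ncl, exons 3 to 6 had 145, 277, 167 and 183 CPM per 100 nt in the pooled SRSF6 file, 86.9, 96.9, 109 and 191 with SRSF4 and 125, 131, 76.7 and 85.5 with SRSF1. The same exons had 11.4, 3.52, 2.76 and 10.5 with SRSF3 and 3.35, 7.34, 0 and 18.8 with SRSF5. In single libraries Ncl exon 3 had 870, 1098 and 962 CPM with SRSF6, 416, 498 and 496 with SRSF4, 48.9, 65.5 and 82.6 with SRSF3, and 8.01, 19.1, 0 and 15.9 with SRSF5. SRSF1 had 843, 568, 414 and 0 CPM there, SRSF2 0 to 72.3 and SRSF7 0 to 690, so that their libraries overlapped those of other proteins. The exon held 17.2% of the pooled Ncl tags. It was picked for its high count, so no test is given.

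Other members had their own leading exons, described in the same way. Exon 11, the last exon of Npm1, held 26.8% of its tags and exon 1 held 21.7%. With SRSF4 exon 11 had 776, 1662 and 1650 CPM, and with SRSF5 72.1 to 136. Npm1 exon 6 had 377, 300 and 269 CPM per 100 nt in the SRSF1, SRSF4 and SRSF6 pools and 7.22 in that of SRSF3. The last exon of Nop58 (14.6% of tags) had 280, 423 and 248 CPM with SRSF6, 203, 297 and 289 with SRSF4, and 16, 0, 26.4 and 21.9 with SRSF5. In Dkc1 the last exon held 34.5% of the tags, with 160, 222 and 106 CPM for SRSF6 and 0 in all 4 SRSF5 libraries. In Nolc1 the last exon held 24.7% and exon 10 had 195, 228 and 126 CPM with SRSF6. Exons 10 and 12 of Nop56 and exon 6 of Nolc1 had no tag in any pooled file. The 18 exons with under 50% of their 30-mers found once in the genome, all in Npm1, Nop56 and Fbl, had a median of 49.2 tags per 100 nt, the 16 exons with 50 to 90% a median of 796 and the 55 with 90% or more a median of 280. Among the first class the median was 444 in Npm1, 13.4 in Fbl and 7.4 in Nop56.

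**Figure D5:**
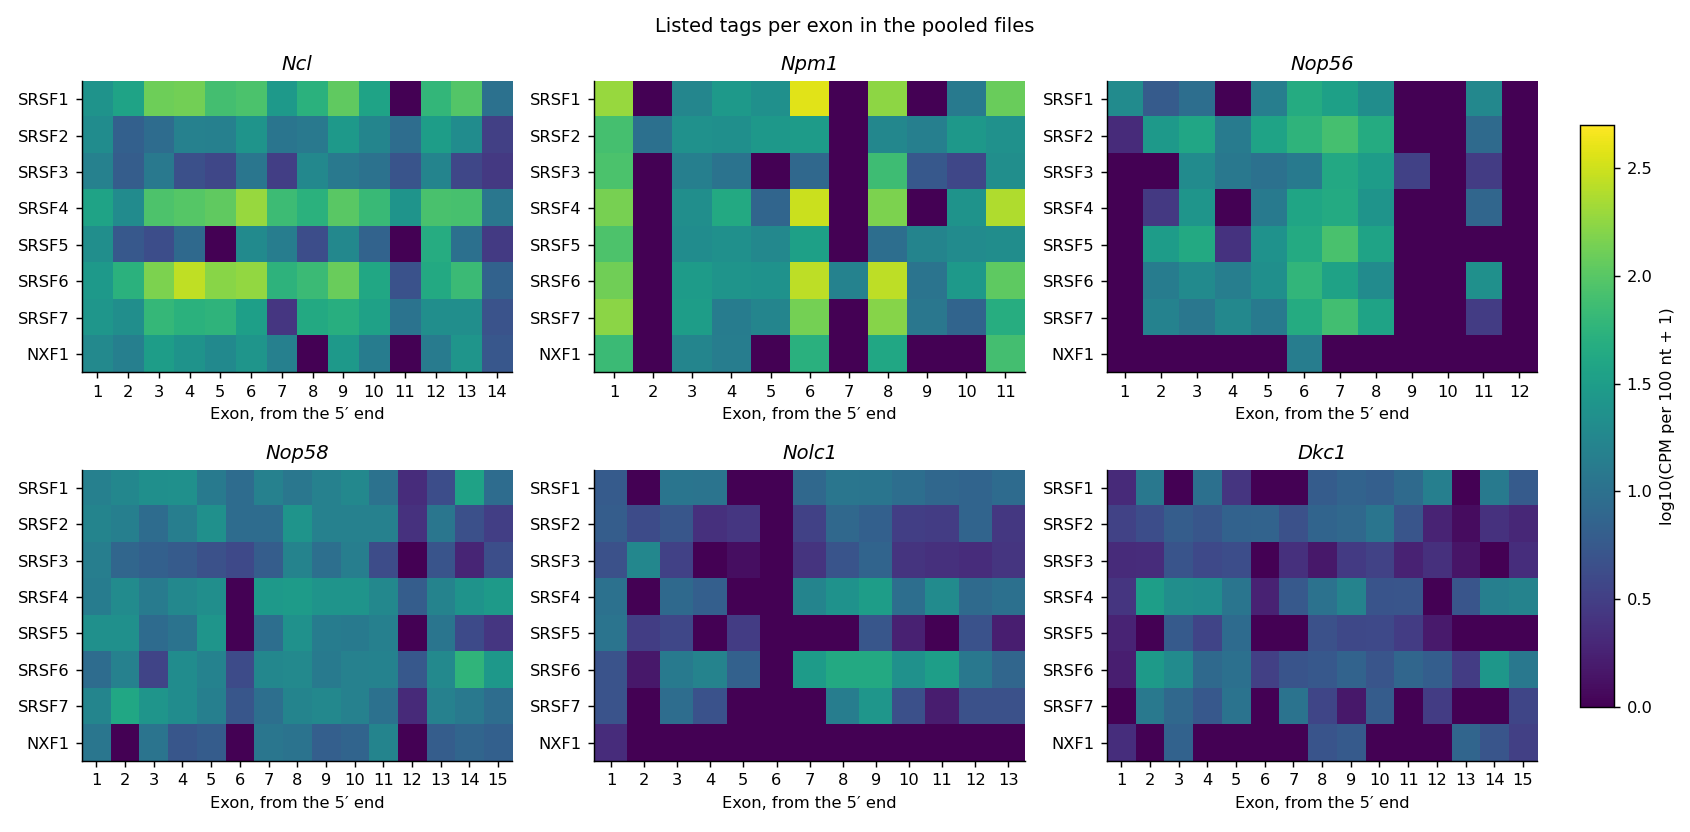
Heat map of log10(CPM per 100 nt + 1) in each exon (horizontal axis, numbered from the 5′ end) of 6 members, Fbl left out, for the 8 pooled files (vertical axis). Ncl exons 3 to 6 are bright for SRSF6, SRSF4 and SRSF1 and dark for SRSF3 and SRSF5, for which they had at most 18.8 CPM per 100 nt.

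The exon position with the most tags in 1 pooled file is shown for each of 6 members, Fbl left out, as a 30-nt window on the gene's strand, with the listed nucleotide in capitals. The windows lie at chr1:88253012-88253041 (Ncl exon 5, coding), chr11:33056722-33056751 (Npm1 exon 8, coding), chr2:130102329-130102358 (Nop56 exon 6, coding), chr1:59768184-59768213 (Nop58 exon 15, 3′ UTR), chr19:46156759-46156788 (Nolc1 exon 8, coding) and chrX:72342162-72342191 (Dkc1 exon 2, coding).
Ncl, 154 SRSF6 tags: aacatctagaacctgTtaaagcagcacctg
Npm1, 164 SRSF6 tags: gcagtctgtacgagaTaccccagccaaaaa
Nop56, 51 SRSF6 tags: gccatcttggatgctTctcggtcctccatg
Nop58, 111 SRSF6 tags: ctgtccccgaacacaTcatgcttacgattc
Nolc1, 33 SRSF6 tags: caccctctgttccttTaccaaagaagtccc
Dkc1, 33 SRSF6 tags: gtttcttgtagtaatTacattcccaaagaa

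The listed nucleotide was T in 48 of the 56 leading exon positions, taken 1 per gene and pooled file (85.7%). Over all exon positions of the members it was T in 31.1% (SRSF6) to 42.7% (SRSF5) for the SR pools and in 41.6% for NXF1, against 25.0% of all exon bases of the 7 genes. The letters GAAGAA occurred on the gene's strand in 6.61% of the 30-nt windows at SRSF6 exon positions of the members, in 3.75% at those of all genes and in 5.33% of all exon windows of the members. By gene, 9.05% of the exon windows of Nop58, 8.63% of those of Nop56 and 2.11% of those of Ncl held them. At SRSF6 exon positions the shares were 14.8% in Nop58, 2.63% in Nop56 and 3.54% in Ncl, so the members differed in direction. The exon windows are those of the numbered exons, while the positions take in exons of any transcript. CNTC occurred in 40.4% of the SRSF3 windows of the members, 53.6% of those of all genes and 24.4% of all member windows, and GGAGGA in 4.28%, 3.7% and 2.82% for SRSF1. Overlapping windows were counted separately, and a match is a description only.

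The 3 genes whose levels followed each member most closely were taken from all 6234 tested genes by Spearman's rho over the 31 libraries, which share their totals. For Ncl they were Gas5 (0.861), Snord49a (0.813) and Tsr1 (0.811), for Nop56 Rabggtb (0.952), Eif4a1 (0.909) and SNORA67 (0.905), and for Nop58 SNORD77 (0.941), Tsr1 (0.871) and Ipo7 (0.860). Gas5 is a noncoding host of 9 annotated small RNA genes. All 9 entries of these 3 lists either were small RNA genes (3) or held one (6). The levels were those of gene bodies, so tags of nested small RNA genes enter both the members and the matched hosts. For Npm1 the closest were Hmgb2 (0.884), Anp32b (0.868) and Hnrnpab (0.857), for Nolc1 Akap9 (0.913) and for Dkc1 Acin1 (0.866), and 2 of the 12 entries of the other 4 members held a small RNA gene. Of the 6234 tested genes 5898 were other than small RNA genes, and 9.77% of these 5898 held one. Between members the closest pairs were Nop56 and Nop58 (0.801), Npm1 and Dkc1 (0.782) and Ncl and Nop58 (0.771). The median rho over all tested genes was 0.122 for Ncl, 0.139 for Nop56, 0.174 for Nop58 and 0.497 for Nolc1.

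Other genes of the pathway were counted in 4 lists. With NXF1 4 genes of the lists were called, all of them lower, where 2.60% of all genes were. Of 29 tested genes of the small subunit processome, which cleaves and folds the pre-rRNA, 1 was lower with NXF1 (Utp20, -5.00). Of 33 tested large subunit assembly genes 3 were lower (Pes1 -4.47, Nle1 -4.47 and Nop2 -3.11), while the 10 tested snoRNP proteins and assembly factors (of 16) and the 10 tested RNA polymerase I genes held none of the 4. The medians were -2.74 for the small subunit list, -2.41 for the large subunit list, -2.51 for the snoRNP list and -1.60 for the polymerase list, against -1.83 over all genes. With SRSF6, 1 snoRNP, 4 small subunit, 9 large subunit and 2 polymerase genes were higher, where 3.80% of all genes were, among them Tgs1 (2.62), which methylates the caps of small RNAs to the trimethylated form, Ftsj3 (3.90), an rRNA methyltransferase, and Ubtf (2.68), an RNA polymerase I factor. The medians of these lists, 1.83, 1.78, 2.16 and 1.74, lay above the 1.03 of all genes. SRSF5 was lower in 2, 4, 9 and 4 genes in that order, where 19.5% of all genes were, with Ftsj3 at -5.09 and Ubtf at -3.09. The list calls are from the main fit only. Over all genes the numbers called higher and lower with SRSF6 and SRSF5 changed with the scaling, as given above. With NXF1 162 genes were called lower in the main fit. This became 2 under trimmed mean, 122 under coding-gene totals and 3 under median of ratios scaling.

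The GFP-NLS control pool held 21880 tags, of which 11 lay in Ncl (503 CPM, exact Poisson interval 251 to 900, counting error only), 10 in Npm1 (457, 219 to 841), 15 in Nop56 (686, 384 to 1131), 2 in Dkc1, 1 in Nop58 and 0 in Fbl and Nolc1. All 11 Ncl tags were in SNORD20 and 14 of the 15 Nop56 tags in Snord57 (640 CPM, 350 to 1074). The snoRNAs of the hosts together had 1188 CPM in the control pool, 5061 in that of NXF1 and between 562 (SRSF3) and 1587 (SRSF1) in those of the SR proteins. For Snord57 the control interval took in all 3 NXF1 libraries, and for SNORD20 it took in only replicate 3 (708 CPM). No control tag was listed for SNORD11, Snord11, Snora75 or Snord110, for which the Poisson interval reached 169 CPM. This limit lay above the lowest NXF1 library of Snord110 (129 CPM) and Snord11 (0 CPM). It lay below the lowest of SNORD11 (1095 CPM) and Snora75 (677 CPM). In the SR libraries the median was 116 CPM for Snord57 (0 to 715) and 168 CPM for SNORD20 (0 to 596). Both medians lay below the control values of 640 and 503 CPM. The SR median of Npm1, 1338 CPM, lay above its control interval, which took in all SRSF5 libraries (521 to 792 CPM). What part of the NXF1 or SR signal in SNORD20, Snord57 and Npm1 is background was not tested.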

How the data were processed

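The deposited files hold, per the file headers, whole-number cDNA counts at single nucleotides, signed by strand (minus for one strand), with 1 file per library and 1 pooled file per protein. The cluster files were not used here. The authors listed a position only if the density around it (15-nt neighbourhood) was significant against 100 permutations at a false discovery rate of 0.05, using Ensembl 59 segments on mm9. The submitters' processing notes name CASAVA 1.4, and for the aligner no name is given in the sources read. These signed values are not raw counts, since unlisted positions are missing, so a log-scale test took the place of a count model.

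Tags on the gene's strand were summed per gene body, and per exon, intron and small RNA gene of GENCODE vM1, with sequences from the mm9 genome. Exon units took in the exons of every transcript of a gene, and intron units the rest of the body, with small RNA genes taken out. Numbered exons and introns are those of the transcript with the longest coding sequence. CPM used the library's listed tags. Genes and units that reached 42.11 CPM in 3 or more libraries, with a total of 15 tags or more, were tested with limma voom (limma 3.58.1, R 4.3.3) in 1 fit over 31 libraries, with no block, and Benjamini-Hochberg adjustment over all 6234 genes or 6945 units. Adjusted p-values in the text are from limma, two-sided, and calls were made at 0.05. The fit was also run on simulated complete counts. These had no position threshold, so the run does not test the fit on listed tags. Counts and figures used Python 3.11.15, numpy 2.4.6, pandas 2.3.3 and scipy 1.17.1. No pair of libraries of a group agreed within sampling noise (smallest chi-square per degree of freedom 8.24).

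The members, the 4 gene lists and the marker genes were chosen with earlier results of these data known. The text names the members, their snoRNAs, the leading exon and leading listed position of each member, the 3 tested genes closest to each by rho, and called list genes (up to 6 per contrast, smallest adjusted p first). Other exons named were chosen after their values were seen. Alternatives were other scalings, filters and tests, listed positions in place of tags, tags assigned once, libraries with at least 50000 tags, run years, a replicate block and leaving out each library. The 2013 libraries alone and the 10-nt widening were chosen after seeing the data. The sequence of Snord57 is not reported here.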

Additional observations from a re-analysis of the deposited data

Results flagged for a closer look

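In 70 groups of 4 to 6 libraries of 1 protein, the highest or lowest library was set against the others by Dixon's criterion at 95%, and 12 groups had a library that stood apart. For normally distributed values about 1 in 20, or 3.5, would stand apart. Thresholded values with many zeros are not normally distributed, so 3.5 is no chance expectation here. In the gene bodies these were Npm1 in SRSF2 replicate 3, at 101 CPM with the other libraries between 1094 and 1430, and Dkc1 in SRSF5 replicate 4, at 61.8 CPM with the others between 0 and 4.78.

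The other 10 were snoRNAs of the hosts. In Ncl, Snora75 stood at 51.7 CPM in SRSF7 replicate 6 (others 0 to 4.48). In Nop56, Snord110 stood at 41.9 CPM in SRSF5 replicate 4 (others 0), SNORA51 at 62.6 in SRSF1 replicate 1 (others 0 to 8.12) and at 15.9 in SRSF7 replicate 4 (others 0 to 2.72), SNORD56 at 312 in SRSF2 replicate 4 (others 0 to 75.4) and Snord57 at 614 in SRSF7 replicate 1 (others 0 to 69.8). In Nop58, Snord70 stood at 76.4 CPM in SRSF5 replicate 2 (others 0), SNORD70 at 304 in SRSF7 replicate 3 (others 0 to 78.7), SNORD11 at 257 in SRSF7 replicate 3 (others 0 to 47.2) and Snord11 at 18.2 in SRSF7 replicate 4 (others 0 to 6.35).

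The GFP-NLS control, which entered no test, held more than 3 tags in 3 members: 11 in Ncl, 10 in Npm1 and 15 in Nop56. Among the snoRNAs it held 11 tags in SNORD20 and 14 in Snord57.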

How the results depend on the processing

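The number of member bodies called for NXF1 against the SR proteins was 1, and became 0 with trimmed mean or median of ratios scaling. It became 2, Nolc1 and Nop58, with coding-gene totals or with libraries of at least 50000 tags. It ran from 0 (without NXF1 replicate 1, 2 or 3) to 1 over the fits without 1 library. For the SR proteins the 4 called bodies became 0 with trimmed mean scaling, median of ratios scaling, limma-trend (prior 4.211 CPM) or the 2014 libraries, 1 with coding-gene totals, 2 with no CPM filter or listed positions, and 10 with libraries of at least 50000 tags. Without 1 library they ran from 1 (SRSF5 replicate 1 or 2) to 5. The 6 units called for NXF1 became 0 with limma-trend, 1 with no CPM filter, 2 with trimmed mean scaling, 11 with libraries of at least 50000 tags, 12 with listed positions and 13 with coding-gene totals, and without 1 library ran from 0 (NXF1 replicate 1 or 2) to 8. The 12 units of the SR contrasts became 1 with limma-trend or the 2014 libraries, 3 with trimmed mean or median of ratios scaling and 5 with no CPM filter, and without 1 library ran from 5 (SRSF5 replicate 2) to 15. SRSF3 against SRSF7 gave 0 under all alternatives, without 1 library included. The causes were not tested, beyond the 2014 libraries holding none of SRSF5 or SRSF6.

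Same-numbered libraries of different proteins did not deviate together (mean correlation 0.011, n = 91 pairs, -0.301 to 0.35), so the numbers were not taken to pair samples. With a replicate block 1 body and 5 units were called for NXF1, and 3 bodies and 7 units in the SR contrasts.

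Directions reversed for Nop58 bodies with NXF1 when tags were assigned once (-2.15), for Npm1 bodies with NXF1 under trimmed mean (0.41), coding-gene totals (0.20) and median of ratios scaling (0.38) and by listed positions (0.80), and for SNORD56 with SRSF5 by listed positions (0.01). None of these values passed the test. Of 1175 alternative values of 28 single results, 931 kept direction and call, 236 lost and 2 gained the call, and 6 reversed. The split of all gene bodies called higher and lower with NXF1 was 223 and 162, and 227 and 2, 473 and 122, and 237 and 3 under the 3 scalings in that order.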
